A study of Mus musculus with 8 samples.

Results

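Imprinted genes were examined in the juvenile mouse ovary by taking 32 symbols, 21 of them paternally and 11 maternally expressed, from the 45583 symbols of the gene count table. The symbols were listed by name, and earlier results of these data were known when they were chosen. The libraries came from whole ovaries of 3-week-old female mice of the C57/Bl6 strain, with 4 mice labelled WT and 4 labelled GOAT KO, 1 library per mouse. GOAT, encoded by *Mboat4*, is the enzyme that adds the acyl chain to ghrelin, and the knockout is a deletion in every cell of the body from conception onwards. Heterozygous parents were bred to give WT and GOAT KO littermates, so both genotypes had heterozygous mothers and fathers, and which mice shared a litter is not given in the sources used here. Libraries are named below by genotype label and animal number, in the order WT 1118, WT 1119, WT 1120 and WT 1121, then GOAT KO 1139, GOAT KO 1140, GOAT KO 1141 and GOAT KO 1146.

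An imprinted gene is transcribed mainly from the copy inherited from one parent, because a control region near it was methylated in either the sperm or the oocyte. Many imprinted genes sit in clusters in which one control region sets the activity of several neighbours, often with protein-coding genes on one parental copy and long non-coding RNAs on the other. Imprints are erased in the germ cells of the fetus, and oocytes lay down the maternal marks as they grow after birth, while the granulosa, theca and stromal cells of the ovary keep the pattern of a normal body cell. Allele of origin cannot be read from these libraries, which come from a single inbred strain, so paternal and maternal below refer to the copy each gene is known to use. *Ube3a* is maternal only in neurons but is counted below with the maternal genes, and *Grb10* is maternal outside them.

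Counts on genes summed to between 16147216 and 19481798 per library. *Mboat4* had 1, 1, 1 and 3 counts in the WT libraries and 5, 7, 7 and 8 in the GOAT KO libraries, a direction against the labels. These are few counts over the whole gene and were not placed within or outside the deleted part, so they do not settle the genotypes, and every direction below is for libraries as labelled. Granulosa markers summed to 8430 to 10700 CPM (normalised counts per 1000000 counts of a library) in the libraries labelled WT and 10000 to 10800 in those labelled GOAT KO, and all 10 oocyte markers exceeded 1 CPM in all 8 libraries. The 8 stromal markers summed to 3570, 3481, 3249 and 3771 CPM in the WT libraries and 4245, 3673, 4146 and 4286 in the GOAT KO libraries, so that 3 GOAT KO libraries lay above every WT library. The collagen genes *Col1a1*, *Col1a2* and *Col3a1* carried most of this sum, and each of them and *Tcf21* had the same 3 libraries on top. For *Pdgfra*, *Dcn*, *Lum* and *Nr2f2* no GOAT KO library lay above every WT library. The sum is thus no measure of the amount of stroma, and the part of these markers in the differences below was not tested. GOAT KO 1139 stood apart with a summed adipose marker level of 452 CPM against 13.4 to 30.1 elsewhere, and with WT 1120 it had the highest *Cyp17a1* (601 and 355 CPM, against 42.4 to 138 in the other libraries). Values with 6 libraries, below, leave out WT 1120 and GOAT KO 1139. In whole ovaries fewer cells of a type and less RNA per cell cannot be told apart.

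The first result concerned detection. Of the 32 imprinted genes, 23 passed the filter on low counts (17 of 21 paternal and 6 of 11 maternal), and among the 9 that did not were *Meg3* and *Rian*, the long non-coding RNAs of the *Dlk1*-*Dio3* cluster on chromosome 12. The gene count table gave *Meg3* (chr12:109541001-109571726, + strand, GRCm38) 10 counts over all 8 libraries and *Rian* (chr12:109603940-109661716, + strand) 38. The splice junction files gave a different picture. Reads crossing annotated *Meg3* introns numbered 217, 220, 383 and 309 in the WT libraries and 321, 248, 415 and 328 in the GOAT KO libraries, 2441 in all. Those crossing *Rian* introns numbered 100, 190, 331 and 263 (WT) and 282, 204, 359 and 277 (GOAT KO), 2006 in all. Both RNAs were thus spliced and present in every ovary, although their gene counts read almost as absent.

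The exon joins below carried the most reads and are shown because they are the direct evidence for these RNAs. Each is read 5′ to 3′ from the annotated transcript sequence, 25 bases on either side of the join, with the 4 bases on each side in capitals. The *H19* join is added as the same kind of RNA from a gene whose junction reads were 9.36% of its counts.
Meg3: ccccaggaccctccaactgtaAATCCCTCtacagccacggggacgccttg
Rian: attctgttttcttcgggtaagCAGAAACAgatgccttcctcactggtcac
H19: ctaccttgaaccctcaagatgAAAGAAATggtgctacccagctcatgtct

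The *Meg3* join skips the intron at chr12:109558321-109571390 and was read 34, 59, 108 and 70 times in the WT libraries and 73, 66, 120 and 77 times in the GOAT KO libraries. The *Rian* join skips chr12:109656841-109658052 and was read 29, 49, 81 and 51 times (WT) and 78, 40, 101 and 65 times (GOAT KO). The *H19* join skips chr7:142576331-142576408 on the minus strand, with 76, 59, 78 and 48 reads (WT) and 60, 61, 47 and 42 (GOAT KO). *Meg3* was supported by 11 junctions and *Rian* by 20, so neither rested on a single join.

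Over the 9476 genes with at least 100 junction reads, junction reads came to a median of 15.6% of the gene counts, with 3.31% to 36.8% from the 5th to the 95th percentile. Only 135 of these genes (1.42%) had more junction reads than counts. Of the 13 imprinted genes at that minimum, *Meg3* and *Rian* were the 2 that did, with 244 and 52.8 junction reads per gene count. The others lay between 2.44% (*Peg3*) and 38.0% (*Sgce*). *Dlk1*, the paternally expressed Notch-like protein of the same cluster, was listed at 0 counts in all libraries but had 15 junction reads, 4, 2, 1 and 2 in the WT libraries and 6, 0, 0 and 0 in the GOAT KO libraries. Between 15.7% and 16.8% of mapped reads per library were neither assigned to one feature nor recorded as on none, and their part in the missing counts was not tested.

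**Figure D1:**
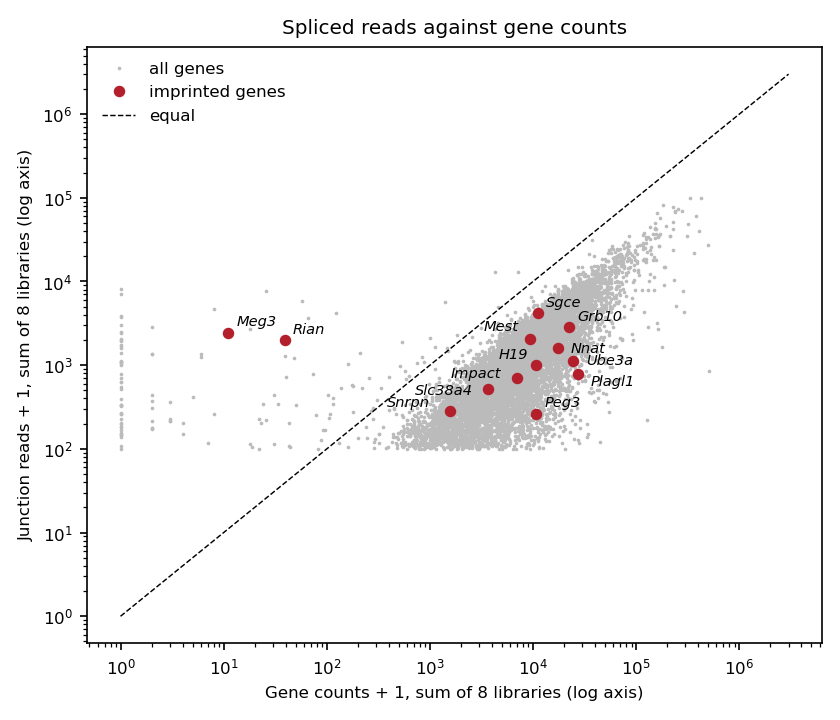
Reads across annotated introns (y axis) against gene counts (x axis), each summed over the 8 libraries with 1 added, on log axes. Grey points are the 9476 genes with at least 100 junction reads, red points are the 13 imprinted genes among them, and the dashed line marks equal values. Meg3 and Rian lie far to the left of the line and the other 11 lie to its right.

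With gene counts replaced by spliced reads, *Meg3* stood at 88.7, 77.0, 140 and 105 spliced CPM (spliced reads per 1000000 spliced reads of a library) in the WT libraries (103 ± 27.5, SD, n = 4) and 123, 96.5, 132 and 121 in the GOAT KO libraries (118 ± 15.1). *Rian* stood at 40.9, 66.5, 121 and 89.5 (79.5 ± 34.2) and at 108, 79.4, 114 and 102 (101 ± 15.1). WT 1120 was highest for both and the groups overlapped. The log2 fold change, GOAT KO over WT, was 0.20 for *Meg3* (SE 0.168) and 0.34 for *Rian* (SE 0.25), both with an adjusted p of 0.942 (edgeR). Without WT 1120 and GOAT KO 1139 the values were 0.37 (SE 0.149) and 0.58 (SE 0.236), each with an adjusted p of 0.671. *Meg3* was 0.08 without WT 1119 and *Rian* 0.13 without WT 1118, so both values depended on single libraries. Of the 21 imprinted genes with annotated introns of their own that were read, 15 could be tested on spliced reads with 8 libraries. None had an adjusted p under 0.05 (0% of 10128 genes), and at the unadjusted level of 0.05 there was 1, *Peg10* (4.21%). With 6 libraries 13 could be tested, 0 passed after adjustment (0.0294% of all genes) and 4 had an unadjusted p under 0.05 (7.13%), namely *Meg3*, *Rian*, *Nnat* and *Plagl1*, of which *Rian* and *Nnat* also exceeded 0.5 on the log2 scale (2.97%).

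*Meg3* and *Rian* moved together from ovary to ovary (the plot of paired levels). Pearson's r of their log2 spliced reads was 0.832 over 8 libraries (exact permutation p = 0.00734, two-sided) and Spearman's rho was 0.976 (exact permutation p = 0.000397). The pair was tested on spliced reads after their values were seen. Without WT 1118 and WT 1119, the libraries farthest from the median of *Meg3*, r was 0.996, with the group means removed it was 0.796, and in the 6 libraries it was 0.77. *Mirg*, the third maternal non-coding RNA of the cluster, is a host of microRNAs and passed the filter on gene counts. Its levels were 3.53, 4.56, 15.04 and 5.56 CPM in the WT libraries and 10.5, 4.03, 5.07 and 7.21 in the GOAT KO libraries. WT 1120 was also the highest library for *Mirg* and GOAT KO 1139 the next, and its coefficient of variation over the 8 libraries (57%) was the largest of the 23 genes tested. The fitted difference was -0.11 on the log2 scale (SE 0.435, adjusted p = 0.989), turning to 0.25 with 6 libraries (SE 0.231, adjusted p = 0.747). Spliced *Mirg* reads numbered only 1 to 30 per library. On them WT 1120 was again highest (10.99 spliced CPM), but GOAT KO 1139 (2.295) lay below GOAT KO 1146 (3.685) and WT 1121 (3.063).

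On gene counts, per kilobase of exon, the highest imprinted genes were paternal *Nap1l5* (177 CPM per kb), a relative of nucleosome assembly proteins, and *Nnat* (67.5), the membrane protein neuronatin. *H19*, the maternal non-coding RNA that hosts miR-675, followed at 31.1, then the zinc finger regulator *Plagl1* (25), the retrotransposon-derived *Peg10* (24.2) and the growth factor receptor adaptor *Grb10* (17.6). Of the other genes counted as maternal, the ubiquitin ligase *Ube3a* stood at 8.48 and the cell cycle inhibitor *Cdkn1c* at 3.3. At the other end of the tested genes were *Usp29* (0.0805), *Kcnq1ot1* (0.167) and *Zim1* (0.202), all on chromosome 7. The levels of *Meg3* and *Rian* on this scale (0.00402 and 0.0148) share the shortfall of their counts.

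**Figure D2:**
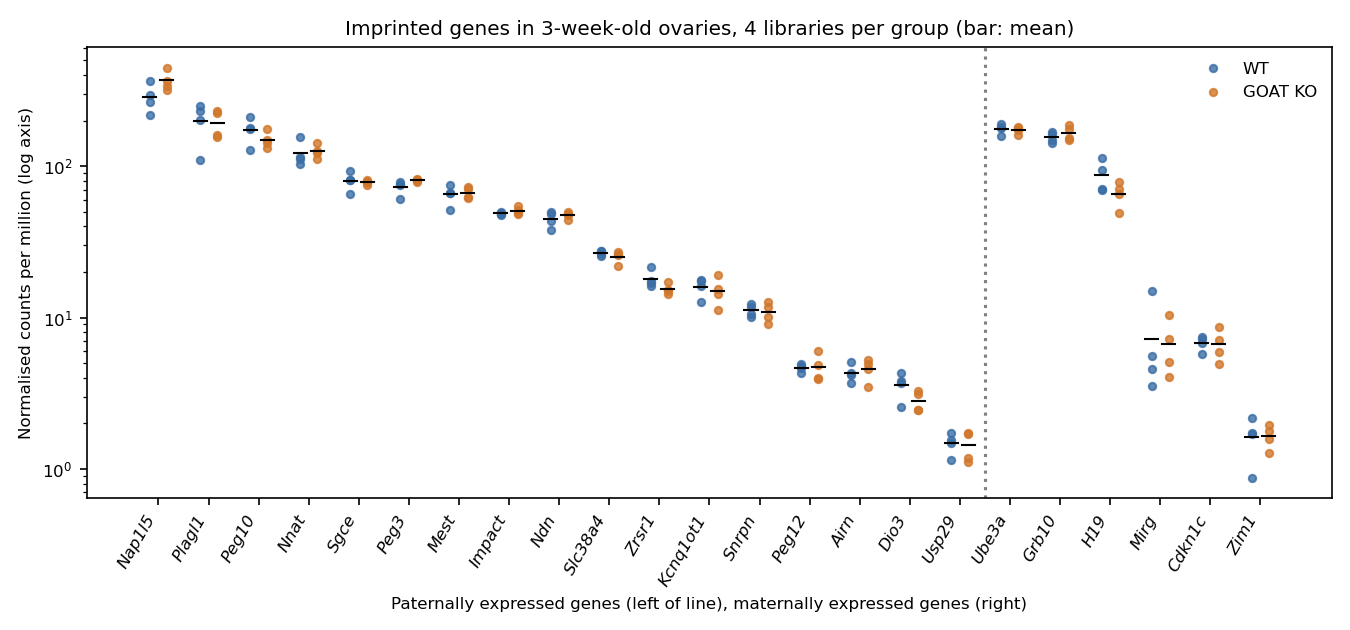
Levels in CPM on a log axis for the 23 imprinted genes tested, paternally expressed to the left of the dotted line and maternally expressed to the right. Each point is 1 library (blue, labelled WT, orange, labelled GOAT KO) and bars are means of 4. The groups overlap for every gene but Peg3, and Mirg and Plagl1 have single WT libraries far from the other 3.

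The comparison of genotypes gave no call among the imprinted genes. By edgeR's quasi-likelihood test, with p-values adjusted after Benjamini and Hochberg over the 16601 genes tested, none of the 23 passed 0.05, where 0.0241% of all genes did, and the smallest adjusted p was 0.983. The study's rule for its gene list took genes whose log2 fold change exceeded 0.5 in either direction and whose unadjusted p was under 0.05. It called 0 imprinted genes and 1.67% of all genes. At an unadjusted p under 0.05 alone there were 2, *Nap1l5* and *H19*, beside 4.62% of all genes. With 6 libraries these counts were 0 (0.12% of all genes), 0 (2.39%) and 3 (9.46%), the 3 being *Dio3*, *Peg10* and *Nap1l5*. For its pathway analysis the study used a lower fold limit with the same p, which these genes also passed. Their log2 fold changes were 0.37 (*Nap1l5*) and -0.40 (*H19*) with 8 libraries. With 6 they were -0.42 (*Dio3*), -0.34 (*Peg10*) and 0.39 (*Nap1l5*). The share of all genes at that limit was not counted. DESeq2 and limma-voom with 8 libraries each also gave 0 adjusted calls, and *Nap1l5* and *H19* at an unadjusted p under 0.05.

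Paternal and maternal genes did not separate by direction. Of the 17 paternal genes 8 had a positive and 9 a negative log2 fold change, with a median of -0.03, and of the 6 maternal genes 2 were positive and 4 negative, with a median of -0.03. The median over all genes tested was 0. In each library, the median deviation of the paternal genes from their mean over the libraries, less that of the maternal genes, was 0.00, -0.04, -0.08 and 0.07 in the WT libraries and -0.09, -0.01, 0.17 and -0.12 in the GOAT KO libraries on the log2 scale. Both groups thus spanned 0 and overlapped. With 6 libraries the medians were -0.10 for the paternal genes (5 positive, 12 negative) and -0.14 for the maternal genes (2 positive, 4 negative).

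**Figure D3:**
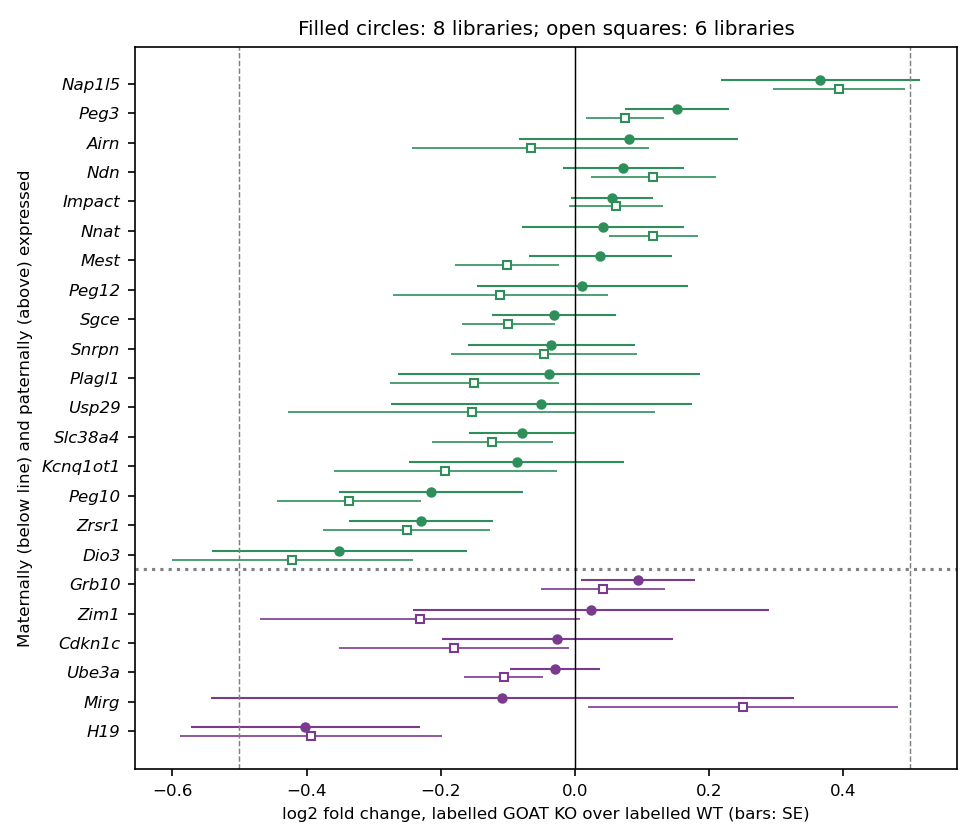
Log2 fold change, libraries labelled GOAT KO over those labelled WT, with its standard error for the 23 imprinted genes tested, paternally expressed (green) above the dotted line and maternally expressed (purple) below. Filled circles use 8 libraries and open squares 6, and dashed lines mark log2 changes of 0.5 either way. Every value lies within the dashed lines, with Nap1l5 at the top and H19 at the bottom.

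*Nap1l5* (chr6:58905233-58907076, - strand), a small gene inside an intron of another gene, has a control region methylated in the oocyte. Its levels were 218, 296, 364 and 264 CPM in the WT libraries (285 ± 61.3, SD, n = 4) and 448, 363, 320 and 341 in the GOAT KO libraries (368 ± 56.2). WT 1118 was lowest and GOAT KO 1139 highest, and WT 1120 lay within the GOAT KO range. The log2 fold change was 0.37 (SE 0.148, adjusted p = 0.983), and with 6 libraries 0.39 (SE 0.098, adjusted p = 0.323). WT 1118 also had the lowest summed granulosa markers (8430 CPM against 9340 to 10800 in the others), whose part in the value was not tested. Without WT 1118 the log2 fold change was 0.256, without GOAT KO 1139 it was 0.257 and without WT 1120 it was 0.5.

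*H19* (chr7:142575529-142578143, - strand) lies beside *Igf2* and shares its control region, with *H19* read from the maternal and *Igf2* from the paternal copy. Its levels were 113, 71.1, 94.6 and 69.7 CPM in the WT libraries (87.2 ± 20.8) and 70.4, 78.4, 65.6 and 49.3 in the GOAT KO libraries (65.9 ± 12.3). WT 1118 and WT 1120 lay above every GOAT KO library, while WT 1119 and WT 1121 lay among them. The log2 fold change was -0.40 (SE 0.171, adjusted p = 0.983), -0.39 with 6 libraries (adjusted p = 0.563), and -0.25 without WT 1118. Spliced *H19* reads gave -0.37 (SE 0.209, adjusted p = 0.942).

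*Peg10* (chr6:4747306-4760517, + strand), which the placenta needs, stood at 211, 177, 127 and 178 CPM in the WT libraries (173 ± 34.4) and 149, 175, 141 and 131 in the GOAT KO libraries (149 ± 18.9). WT 1120 was the lowest of all 8 and the other WT libraries were the highest. The log2 fold change was -0.21 (SE 0.137, adjusted p = 0.983), -0.34 (SE 0.107, adjusted p = 0.427) with 6 libraries and -0.11 without WT 1118. *Dio3*, the deiodinase that inactivates thyroid hormone at the far end of the chromosome 12 cluster, stood at 4.34, 3.72, 2.58 and 3.82 CPM in the WT libraries (3.61 ± 0.741) and 2.45, 3.12, 3.28 and 2.44 in the GOAT KO libraries (2.82 ± 0.438). WT 1120 was the only WT library within the GOAT KO range of *Dio3*. *Dio3* had a log2 fold change of -0.35 (SE 0.19, adjusted p = 0.983), and -0.42 (SE 0.179, adjusted p = 0.515) with 6 libraries.

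Reads across a *Peg10* intron (chr6:4747579-4754123) numbered 11, 8, 12 and 12 in the WT libraries and 10, 0, 0 and 0 in the GOAT KO libraries, with 2868, 2760 and 2255 gene counts in the libraries at 0. *Peg10* was the 1 imprinted gene of 15 tested on spliced reads that the study's rule called (adjusted p = 0.942), beside 1.8% of all genes. Of 1599 introns with 8 or more reads in at least 5 libraries and no library above 12, 2.31% (37 introns) were at 0 in all their other libraries and 39.6% were at 0 in at least 1 library. These limits were taken from the *Peg10* intron, which is itself among the 1599 and was the only 1 of the 37 with zeros in GOAT KO 1140, GOAT KO 1141 and GOAT KO 1146, and the cause of its zeros was not tested.

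*Peg3* was the only tested imprinted gene whose groups did not overlap, with every GOAT KO library above every WT library. Over all genes tested, 1.64% were in that position, 1.27% in the opposite one and 2.92% in either. It is described for that reason after its values were seen. *Peg3* encodes a large zinc finger protein and stood at 78.4, 74.6, 60.97 and 76.8 CPM in the WT libraries (72.7 ± 7.95) and 80.9, 78.7, 81.03 and 82.3 in the GOAT KO libraries (80.7 ± 1.53). The GOAT KO libraries were close together and WT 1120 was lowest. The log2 fold change was 0.15 (SE 0.078, adjusted p = 0.983), 0.07 without WT 1120 and 0.08 with 6 libraries. Spliced *Peg3* reads ran the other way, at 18.8, 11.9, 10.3 and 14.97 spliced CPM in the WT libraries and 9.18, 9.73, 10.5 and 10.7 in the GOAT KO libraries, with a log2 fold change of -0.48 (SE 0.255, adjusted p = 0.942). They numbered 24 to 46 per library against 1111 to 1583 gene counts, so their counting error is the larger.

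*Plagl1*, an imprinted regulator known to act on *H19* and other imprinted genes, stood at 230, 251, 109 and 203 CPM in the WT libraries (198 ± 62.3) and 156, 231, 224 and 161 in the GOAT KO libraries (193 ± 40.2). WT 1120 had the lowest level, and the log2 fold change was -0.04 (SE 0.225, adjusted p = 0.99), or -0.15 with 6 libraries (SE 0.126, adjusted p = 0.719). *Nnat* stood at 104, 112, 156 and 115 CPM (122 ± 23.4) and 142, 112, 125 and 122 (125 ± 12.7), and here WT 1120 was the highest. *Nnat* had a log2 fold change of 0.04 (SE 0.121, adjusted p = 0.986), or 0.12 with 6 libraries (SE 0.066, adjusted p = 0.587). Spliced reads of *Plagl1* gave 0.45 (SE 0.255, adjusted p = 0.942), the opposite sign to its gene counts, and those of *Nnat* gave 0.31 (SE 0.187, adjusted p = 0.942), or 0.51 with 6 libraries (SE 0.172, adjusted p = 0.671).

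*Grb10*, which restrains growth downstream of the insulin receptor, stood at 167, 142, 148 and 163 CPM in the WT libraries (155 ± 12.2) and 175, 148, 153 and 186 in the GOAT KO libraries (166 ± 18.1), with a log2 fold change of 0.09 (SE 0.085, adjusted p = 0.983). *Ube3a* stood at 179, 189, 158 and 181 CPM (177 ± 13.1) and 182, 178, 160 and 172 (173 ± 9.59), a log2 fold change of -0.03 (SE 0.067, adjusted p = 0.986). *Cdkn1c* stood at 7.19, 7.45, 6.75 and 5.78 CPM (6.79 ± 0.733) and 8.68, 7.15, 5.94 and 4.94 (6.68 ± 1.61), a log2 fold change of -0.03 (SE 0.172, adjusted p = 0.991). The groups overlapped for each of these maternal genes. With 6 libraries the log2 fold changes were 0.04 (SE 0.093), -0.11 (SE 0.059) and -0.18 (SE 0.171) for *Grb10*, *Ube3a* and *Cdkn1c*, and *Grb10* was 0.03 without GOAT KO 1146 and 0.05 without WT 1119. Spliced reads gave 0.26 for *Grb10* (SE 0.127), 0.30 for *Ube3a* (SE 0.172) and 0.13 for *Cdkn1c* (SE 0.475), the last 2 opposite in sign to the gene counts. Exons of *Ube3a* and *Cdkn1c* overlap those of other genes over 27.3% and 30.7% of their length, including the antisense *Snhg14* for *Ube3a*, and the use of strand in the counting is not given in the sources used here, so such reads cannot be told apart.

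The remaining paternal genes tested had log2 fold changes between -0.23 and 0.08. *Zrsr1*, a splicing factor relative inside an intron of *Commd1*, was at the lower end (-0.23, SE 0.107, adjusted p = 0.983), with 21.6, 16.2, 16.96 and 17.4 CPM in the WT libraries and 15.1, 17.1, 14.3 and 15.1 in the GOAT KO libraries, the groups overlapping through WT 1119, WT 1120 and GOAT KO 1140. *Airn*, the non-coding RNA of the *Igf2r* cluster, was at the upper end (0.08, SE 0.163, adjusted p = 0.986). *Kcnq1ot1*, the antisense RNA that silences the *Cdkn1c* cluster, gave -0.09 (SE 0.16). *Impact*, a regulator of translation under amino acid shortage, varied least of all, from 47.8 to 54.4 CPM with a coefficient of variation of 4.43%. *Mest*, *Ndn*, *Snrpn*, *Sgce*, *Slc38a4*, *Peg12* and *Usp29*, in the same range, each had an adjusted p of at least 0.983. The maternal zinc finger gene *Zim1* gave 0.02 (SE 0.266). With 6 libraries the remaining paternal genes ran from -0.25 to 0.12, and the values of *Airn* (-0.07), *Mest* (-0.10), *Peg12* (-0.11) and *Zim1* (-0.23) had turned negative.

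Beside *Meg3*, *Rian* and *Dlk1*, the other 6 imprinted genes below the filter had 11 counts or fewer in every library. *Rtl1*, a retrotransposon-derived gene of the chromosome 12 cluster that placental capillaries need, was listed at 0 in all libraries and had no junction read. A count of 0 allows up to 3 counts, or 0.154 to 0.186 CPM depending on the library, for counting error only, and given the missing counts of its neighbours it sets no limit on the level of *Rtl1*. *Magel2* had 2 to 6 counts, the Ras exchange factor *Rasgrf1* 1 to 5, the placental regulator *Phlda2* 0 to 3, the transporter *Slc22a18* 4 to 11 and the trophoblast transcription factor *Ascl2* 2 to 7. In a fit with no filter on low counts, none of these 5 genes with counts had an unadjusted p under 0.05.

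The imprinted genes did not vary alike from library to library. WT 1120 was the lowest library for 7 of the 23 tested (*Peg3*, *Peg10*, *Sgce*, *Mest*, *Plagl1*, *Zim1* and *Ube3a*), or 30.4%, where it was lowest for 17.9% of all genes. It was the highest for *Nnat*, *Ndn* and *Mirg* (13%), against 19.8% of all genes. GOAT KO 1146 was also lowest for 7 (30.4%), among them *H19*, *Dio3* and *Cdkn1c*, where it was lowest for 8.66% of all genes. It was highest for *Peg3*, *Impact* and *Grb10* (13%), against 8.85% of all genes. WT 1118 was highest for 7 (30.4%), including *H19*, *Peg10* and *Sgce*, against 20.6% of all genes. It was lowest for *Nap1l5*, *Nnat*, *Ndn*, *Impact* and *Mirg* (21.7%), against 23.5% of all genes. WT 1121 was neither the highest nor the lowest library for any of the 23, against 8.46% and 8.98% of all genes. A coefficient of variation under 15% over the 8 libraries was found for 13 of the 23. These counts describe the libraries and were not tested.

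Levels were compared across libraries for 5 pairs in which both genes passed the filter, 4 of them of neighbours in a cluster and 1 of *H19* with its known regulator *Plagl1*, which lies on another chromosome. *Peg10* and *Sgce*, the epsilon sarcoglycan gene, are read in opposite directions from GENCODE start sites with 98 bases between them. Their log2 CPM had a Pearson's r of 0.851 over 8 libraries (exact permutation p = 0.00283, two-sided, 0.0141 adjusted over the 5 pairs) and a Spearman's rho of 0.833 (exact permutation p = 0.0154, adjusted 0.0769). Without WT 1118 and WT 1120, the libraries farthest from the median of *Peg10*, r was 0.735, with group means removed 0.904, and in the 6 libraries 0.857. The libraries WT 1118 (both genes highest) and WT 1120 (both lowest) mark the ends of the relation.

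**Figure D4:**
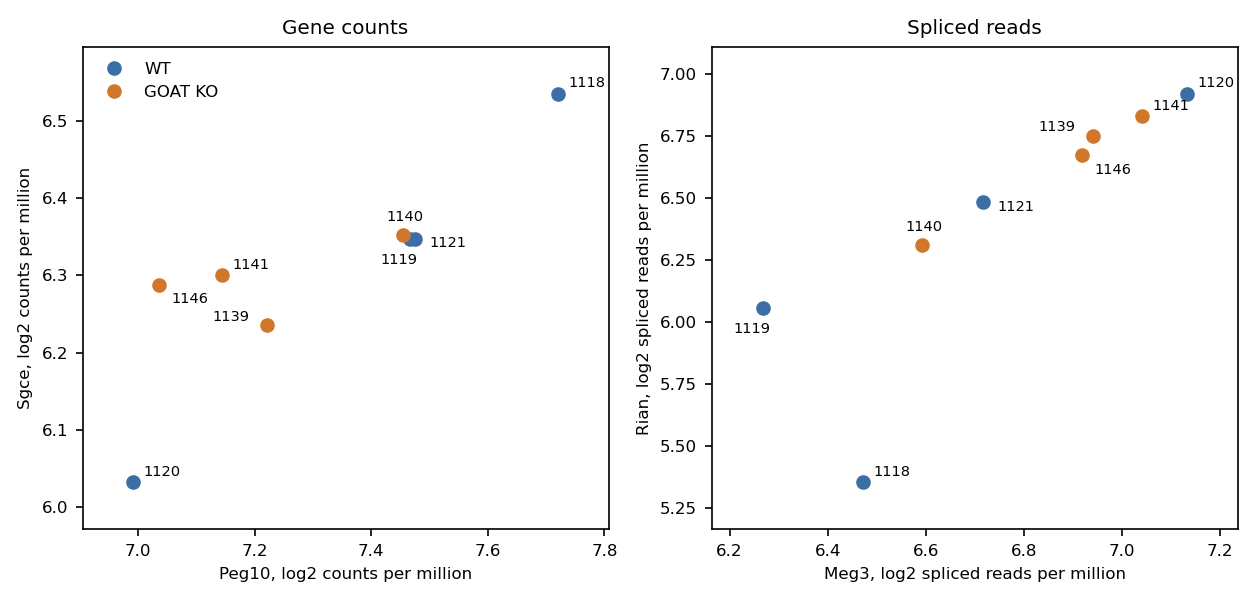
Left, Sgce (y axis) against Peg10 (x axis) in log2 CPM, from gene counts. Right, Rian against Meg3 in log2 spliced CPM, with each point 1 library (blue, labelled WT, orange, labelled GOAT KO, with its animal number), showing WT 1118 and WT 1120 at opposite ends on the left and WT 1120 at the upper end on the right.

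*Peg3* and *Usp29* are likewise divergent, with 146 bases between their start sites, yet their r was -0.154 (exact permutation p = 0.835, adjusted 0.999) and rho was -0.167 (exact permutation p = 0.703, adjusted 0.84). *Usp29* had only 19 to 29 counts per library, and the part of counting error in this r was not tested. The stretch between the GENCODE start sites is shown to set beside that result (chr7:6730432-6730577, + strand, bases from the RefSeq promoter table, GRCm38.p6, whose own start sites lie slightly further apart), with its 5 CpG sites, the places where imprint methylation can sit, in capitals.
Peg3 to Usp29: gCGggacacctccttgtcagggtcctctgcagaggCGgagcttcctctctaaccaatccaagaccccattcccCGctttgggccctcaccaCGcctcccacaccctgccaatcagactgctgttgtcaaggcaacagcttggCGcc

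The other pairs gave an r of 0.661 for *Peg3* and *Zim1* (exact permutation p = 0.121, adjusted 0.301), which was -0.452 without WT 1120 and WT 1119, 0.113 for *Snrpn* and *Ube3a* (exact permutation p = 0.777, adjusted 0.999) and -0.001 for *H19* and *Plagl1* (exact permutation p = 0.999, adjusted 0.999). Their rho values were -0.095, 0.214 and 0.19, each with an adjusted permutation p of 0.84. Without WT 1118 and GOAT KO 1146, r for *H19* and *Plagl1* was -0.727, so it rested on which libraries entered, and for *Snrpn* and *Ube3a* it was 0.024 without GOAT KO 1146 and GOAT KO 1140. *Snrpn* exons overlap those of *Snurf* and other genes over 34.1% of their length.

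The promoters of the imprinted genes were read for the hexamer TGCCGC, which the imprint-keeping zinc finger protein ZFP57 binds when methylated. RefSeq promoters (GRCm38.p6) were found for 26 of the 32 genes. The hexamer stood on either strand within the 250 bases before the start site in 6 of their 35 promoters (17.1%), and in 8.68% of all 32851 promoters. They were 2 start sites of *Mest*, which lie 3 bases apart and hold the same hexamers, and 1 each of *Plagl1*, *Nap1l5*, *Meg3* and *Zim1*, or 5 of the 26 genes. The median number of CpG sites was 8 in these windows and 6 over all promoters. The window before *Nap1l5*, the gene with the smallest unadjusted p, is shown with the hexamer in capitals (chr6:58907127-58907376, - strand), and it holds 10 CpG sites.
Nap1l5: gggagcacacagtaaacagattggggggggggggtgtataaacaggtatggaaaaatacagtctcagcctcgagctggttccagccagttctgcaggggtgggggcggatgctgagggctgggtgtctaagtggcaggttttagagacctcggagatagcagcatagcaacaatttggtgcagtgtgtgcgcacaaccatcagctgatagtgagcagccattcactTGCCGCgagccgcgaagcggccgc

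Imprinted genes outside these 32 and the proteins that set or keep imprints gave no adjusted call either. The other imprinted genes were grouped as paternal or maternal from reports for some tissues, which need not hold in the ovary. Of 11 other paternal genes tested, 7 were positive and 4 negative, and the 1 with an unadjusted p under 0.05 (4.62% of all genes with 8 libraries, 9.46% with 6) was *Igf2*, the growth factor gene next to *H19*. Its levels were 13.6, 11.5, 13.7 and 12.1 CPM in the WT libraries (12.7 ± 1.11) and 13.5, 19.3, 18.7 and 14.4 in the GOAT KO libraries (16.5 ± 2.95). GOAT KO 1139 alone lay within the WT range. The log2 fold change was 0.37 (SE 0.131, adjusted p = 0.983), opposite in sign to that of *H19*, and 0.50 (SE 0.131, adjusted p = 0.347) with 6 libraries.

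Of 18 other maternal genes tested, 11 were positive and 7 negative, with *Trappc9*, a vesicle transport gene, at an unadjusted p under 0.05 (0.19, SE 0.086, and with 6 libraries 0.23, SE 0.083). *Ppp1r9a*, the neurabin gene in the *Peg10* cluster, reached it with 6 libraries only (-0.18, SE 0.069, and -0.12, SE 0.094, with 8). Of 19 imprint regulators tested, among them DNA methyltransferases, TET enzymes and ZFP57, 10 were positive and 9 negative. *Nlrp5*, an oocyte gene needed by the early embryo, had a log2 fold change of 0.19 (SE 0.084) with 8 libraries, and *Tet2*, a methylcytosine oxidase, one of -0.21 (SE 0.08) with 6, each at an unadjusted p under 0.05. Shares of 1 in 18 and 1 in 19 with 8 libraries stood beside 4.62% of all genes, and with 6 libraries 2 of 19 and 1 of 19 stood beside 9.46%. The adjusted p was 0.983 for each of these genes with 8 libraries and at least 0.347 with 6.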

How the data were processed

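Total RNA of snap-frozen ovaries was sequenced by the authors as 50-base single reads, aligned to mm10 (GRCm38) with TopHat2 2.0.14, per the labels and the methods. The authors deposited whole-number counts of reads per gene symbol, reads per splice junction and reads per class of assignment, none normalized; transcripts assembled with StringTie 1.0.4 were not used here. The counting tool and its strand setting are not given in the sources used here. Depth was 16147216 to 19481798 counts per library, and the limit given for a count of 0 covers counting error only.

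Counts were tested with edgeR 4.0.16 in R 4.3.3 (filterByExpr with a minimum of 10 counts, TMM scaling, quasi-likelihood test), with Benjamini-Hochberg adjustment over all 16601 genes tested. The study dropped 1 library per group without naming it. The 6-library set here leaves out WT 1120 and GOAT KO 1139, a choice that need not match the study's. Junction reads were summed over introns annotated to 1 gene (GENCODE vM21, GRCm38), a readout added after the data were seen. Level per kilobase uses merged exon length, and log2 CPM in correlations has a prior count of 2. The fits were tested on simulated data. No pair of libraries of a group differed by less than sampling noise (chi-square per gene 4.22 to 27.1), so each mouse is 1 replicate.

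The genes and lists were chosen with earlier results of these data known. Full values are given for those of the 32 genes with an unadjusted p under 0.05 in the 8- or 6-library fit and for the 4 highest per kilobase of each parental group, and fold changes for listed genes outside the 32 with an unadjusted p under 0.05; other genes shown by library were chosen after their values were seen. Alternatives were RLE scaling, DESeq2 1.42.0, limma-voom 3.58.1, no filter, 6 libraries and each library left out.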

Additional observations from a re-analysis of the deposited data

How the results depend on the processing

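No imprinted gene had an adjusted p under 0.05 under RLE scaling, DESeq2, limma-voom, no filter, 6 libraries or any library left out. By the study's rule the count ranged from 0 to 1 with a library left out, the 1 being *Nap1l5* without WT 1120 (2.61% of all genes there). At an unadjusted p under 0.05 it ranged from 1 to 5: 5 without WT 1120 (*Dio3*, *Peg10*, *Nnat*, *Nap1l5* and *Zrsr1*, 10.6% of all genes), and 1 without WT 1118, WT 1121, GOAT KO 1139, GOAT KO 1141 or GOAT KO 1146. *H19* and *Nap1l5* thus each lost an unadjusted p under 0.05 when single libraries left. The maternal median was -0.143 with 6 libraries and -0.116 to 0.015 with a library left out. The paternal median was -0.101 with 6 libraries, 0.003 with no filter and -0.063 to 0.043 with a library left out. Both medians, single genes and pairs changed sign, and the cause was not tested. With limma-voom, *Plagl1* was 0.006 and *Mirg* 0.027, and *Mirg* was 0.251 with 6 libraries. With a library left out the log2 fold change ran from -0.084 to 0.002 for *Ube3a*, -0.177 to 0.093 for *Cdkn1c*, -0.028 to 0.18 for *Nnat*, -0.243 to 0.09 for *Plagl1* and -0.406 to 0.545 for *Mirg*. With 6 libraries r was -0.766 for *Peg3* and *Zim1*, -0.023 for *Snrpn* and *Ube3a* and 0.676 for *H19* and *Plagl1*, the last being 0.006 with RLE scaling and 0.004 with group means removed. With a library left out r ran from -0.279 to 0.017 for *Peg3* and *Usp29*, -0.687 to 0.798 for *Peg3* and *Zim1*, -0.106 to 0.328 for *Snrpn* and *Ube3a*, -0.271 to 0.54 for *H19* and *Plagl1*, and 0.74 to 0.927 for *Peg10* and *Sgce*. No paired analysis was possible because the replicate numbers are animal numbers and the groups share none. Depth limits genes of a few counts, and the gene counts of *Meg3* and *Rian* are no measure of their level.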
